A study of Mus musculus with 9 samples.

Results

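*Uchl1* and *Kcnh2* were 2 of the 22206 gene rows measured in tibialis anterior (TA) muscle, and they were chosen by their log2 differences from control muscle, which were raised in both models of muscle with too few myonuclei. These differences are therefore given here as a description and without a test. Each gene had 1 row on the array, so no choice between rows was needed. Total RNA from the TA muscle of 9 mice at P28 was hybridised to 1 Clariom S Mouse array per mouse, with 3 control, 3 Δ1w, and 3 Δ2w mice (D1w and D2w in the sample labels). All 9 mice carried a floxed allele of the gene that the labels call 8c, and *Tmem8c* is an older symbol of *Mymk* (Myomaker, which myoblasts need to fuse). The Δ1w and Δ2w mice also carried *Pax7creER*, a Cre active in satellite cells after tamoxifen, which was given at P0 in Δ1w and at P6 in Δ2w mice. The control mice had no *Pax7creER*. Their labels record no tamoxifen, although the methods describe it for all mice. The age is that of the labels, and the study's text gives P28 for these arrays too. The later age it names for Δ2w mice belongs to measurements of fiber size and nuclei.

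On the other chromosome copy, *Mymk* was floxed too (fl/fl) in control replicate 2 and Δ1w replicates 1 and 8, and carried LacZ (LacZ/fl) in control replicates 1 and 6, Δ1w replicate 5, and all 3 Δ2w mice. An mTmG reporter was present in 8 mice, all but Δ1w replicate 8. The labels give an average of 233 nuclei per fiber for control, 55 for Δ1w, and 100 for Δ2w muscle. Recombination took place in satellite cells, so the nuclei already inside the fibers kept the floxed allele intact. The arrays measured whole muscle, in which more cells of a type and more RNA per cell cannot be told apart. The deleted gene checked the labels, since *Mymk* was at a mean log2 signal of 11.82 for control, 8.14 for Δ1w, and 7.59 for Δ2w muscle, with no overlap between control and either model. The tissue was checked too, and 12 of 12 genes of skeletal muscle had a row, with a list mean between 18.98 and 19.12 on each array. Δ1w replicates 5 and 8 stood apart from the other arrays in an index of circadian clock genes, at −1.58 and −2.61 against 0.69 to 2.23 in the other 7 mice. By the level of Y-linked genes, each group held 1 mouse with low and 2 with high values.

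*Uchl1* encodes ubiquitin C-terminal hydrolase L1, a small cysteine protease that frees ubiquitin from short adducts and stabilizes single ubiquitin in the cell. It is among the most abundant proteins of neurons, is widely used as a stain for nerve fibers, and is also made in skeletal muscle. *Kcnh2* encodes the pore-forming subunit of the ERG potassium channel, which carries the rapid repolarizing current of heart muscle. In mouse skeletal muscle an ERG isoform has been found in wasting fibers and has been linked to ubiquitin-dependent protein breakdown. The array gives 1 value for *Kcnh2*, so isoforms were not separated.

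Because the signals of the 2 genes were raised in the same muscles, their RefSeq promoter windows (250 bases before to 50 bases after the transcription start, GRCm38.p6) are shown, with capitals for every match to the motifs searched. *Uchl1* lies on the plus strand at chr5:66675871-66676170 and *Kcnh2* on the minus strand at chr5:24329542-24329841, so both genes lie on chromosome 5.
Uchl1: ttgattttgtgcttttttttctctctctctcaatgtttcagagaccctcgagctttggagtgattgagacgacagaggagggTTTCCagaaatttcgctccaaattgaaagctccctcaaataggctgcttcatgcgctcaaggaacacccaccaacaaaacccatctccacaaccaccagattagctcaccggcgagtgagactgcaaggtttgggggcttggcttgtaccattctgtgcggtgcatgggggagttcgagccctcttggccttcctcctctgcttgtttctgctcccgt
Kcnh2: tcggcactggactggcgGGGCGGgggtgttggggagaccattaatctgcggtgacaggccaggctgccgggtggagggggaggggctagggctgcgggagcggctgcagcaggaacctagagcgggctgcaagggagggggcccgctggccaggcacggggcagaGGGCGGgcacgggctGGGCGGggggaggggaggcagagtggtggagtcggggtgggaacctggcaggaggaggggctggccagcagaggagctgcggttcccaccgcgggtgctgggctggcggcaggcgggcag

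The windows differed in base composition. That of *Uchl1* was 50.7% G and C with 9 CG pairs, near the median of 52.7% over 32851 windows of the same length. That of *Kcnh2* was 74.3% G and C with 19 CG pairs, above 95.6% of all windows. The GC box (GGGCGG, both strands searched) was found 3 times in the *Kcnh2* window, starting 233, 85, and 70 bases before the start, and 0 times in that of *Uchl1*. It is present in 35.7% of all windows. The NFAT core (TTTCC) was found 1 time in *Uchl1*, starting 168 bases before the start, and 0 times in *Kcnh2*, against 61.3% of all windows with a match. Neither window held an E-box (CANNTG, in 72.3% of windows), the MyoD type of E-box nested in it (CAGCTG, 16.3%), a FoxO motif (GTAAACA, 3.6%), or a TATA box (TATAAA, 13.6%). The 2 windows thus shared 0 of the 6 motifs, which says only that these letters were not in these stretches.

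*Uchl1* was at log2 signals of 6.02, 5.49, and 5.88 in control replicates 1, 2, and 6. In Δ1w replicates 1, 5, and 8 it was at 7.48, 8.00, and 7.60, and in Δ2w replicates 2, 3, and 4 at 7.0, 7.35, and 7.62. Every mouse of both models lay above every control mouse, and the Δ1w and Δ2w mice overlapped. The group means were 5.80 ± 0.27 (SD, n = 3) for control, 7.69 ± 0.27 for Δ1w, and 7.32 ± 0.31 for Δ2w muscle. The difference from control was a log2 change of 1.89 for Δ1w (3.72-fold, standard error 0.22) and 1.52 in Δ2w muscle (standard error 0.22, 2.87-fold). The gap between the highest control mouse and the lowest mouse of a model was 1.46 for Δ1w and 0.97 for Δ2w. Each gap was wider than the range of the control mice. The choice of the genes favors such gaps. How many of all rows part without overlap was not counted, here or for the genes named below.

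*Kcnh2* was at log2 signals of 7.69, 7.17, and 7.43 in control replicates 1, 2, and 6. Δ1w replicates 1, 5, and 8 were at 8.69, 8.98, and 9.01, and Δ2w replicates 2, 3, and 4 at 9.14, 9.23, and 8.73. Again every mouse of both models lay above the control mice, which the choice favors, while the 2 models overlapped. The means were 7.43 ± 0.26 (SD, n = 3) for control, 8.90 ± 0.18 for Δ1w, and 9.03 ± 0.27 for Δ2w muscle. Against control, *Kcnh2* was higher by a log2 change of 1.46 in Δ1w (2.76-fold, standard error 0.20) and by 1.60 in Δ2w muscle (standard error 0.20, 3.03-fold). The highest control mouse was 1.0 below the lowest Δ1w mouse and 1.03 below the lowest Δ2w mouse.

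**Figure D1:**
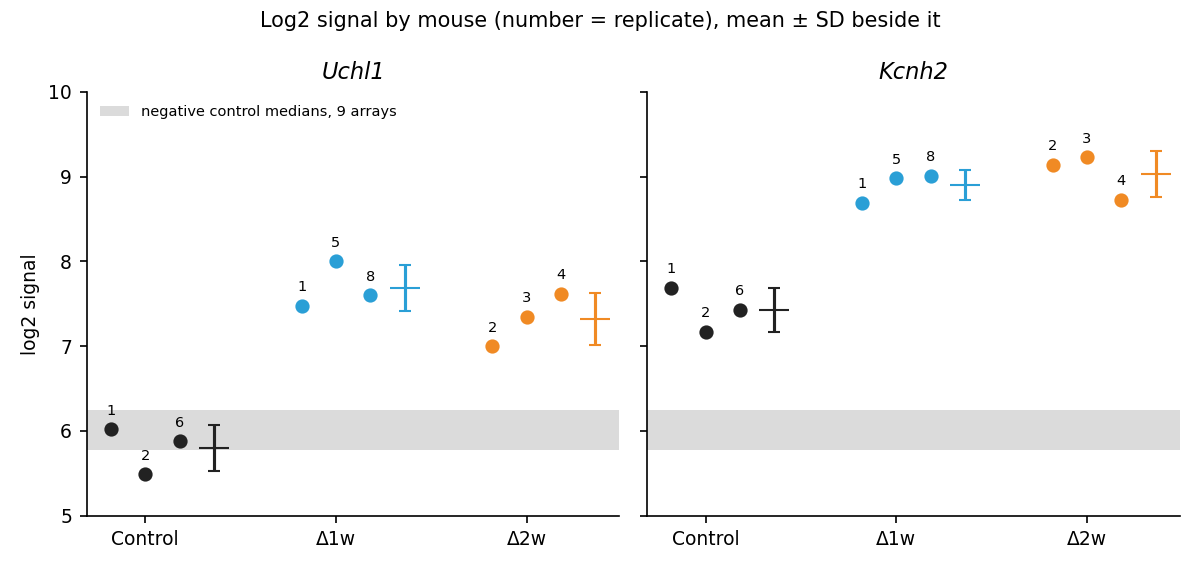
Log2 signal (y axis) of *Uchl1* and *Kcnh2* in each mouse, by group, with the replicate number above each point, the group mean ± SD (n = 3) beside the points, and a gray band from the lowest to the highest negative control median of the 9 arrays. All mice of both models lie above the control mice, and the control mice lie in or below the band for *Uchl1* (5.49 to 6.02) and above it for *Kcnh2* (7.17 to 7.69).

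The control level of *Uchl1* was at background. Probes that serve as negative controls had medians of 5.77 to 6.25 on the 9 arrays, and *Uchl1* lay at −0.76 to −0.08 relative to that median in the control mice. It was 1.40 to 2.05 above it in Δ1w mice and 1.02 to 1.60 above it in Δ2w mice. The fold changes of *Uchl1* were thus measured against a control signal that cannot be told from background. *Kcnh2* was 0.92 to 1.59 above the negative control median in control mice, 2.61 to 3.24 above it in Δ1w mice, and 2.71 to 3.20 above it in Δ2w mice. Both genes stayed within the spread of the negative control probes, which had a long upper tail. The share of them below the gene's own signal ran from 34.8% to 48.5% in control and from 69.9% to 84.9% in Δ1w and Δ2w mice for *Uchl1*. For *Kcnh2* it ran from 67.6% to 78.7% in control and from 89.3% to 93.2% in the mice of both models.

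The order of the groups differed between the genes but not beyond their spread. For *Uchl1* it was control, Δ2w, and Δ1w, from low to high, and for *Kcnh2* control, Δ1w, and Δ2w. Δ1w against Δ2w did not itself choose the genes, but it is the difference of the 2 contrasts that did. Choosing genes raised in both models favors a small difference here, so the test is not independent of the choice. The test was run with limma, adjusted over all rows. *Uchl1* was higher in Δ1w than in Δ2w muscle by 0.37 (standard error 0.22, 95% interval −0.11 to 0.85, limma adjusted p = 0.699), or 0.93-fold to 1.81-fold. *Kcnh2* differed by −0.14 (standard error 0.20, 95% interval −0.57 to 0.30, limma adjusted p = 0.896), or 0.67-fold to 1.23-fold. Neither difference passed, and the intervals leave room for differences of either sign. In this contrast 1 of the 22206 rows was called (0.00450%), and 8.29% of all rows had an unadjusted p under 0.05. With the *Mymk* alleles as a covariate, the difference for *Uchl1* was 0.68 (limma adjusted p = 0.387), over 1.5 times as large.

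Of all 22206 rows, 201 (0.905%) were called higher in Δ1w and 8 (0.0360%) in Δ2w muscle at an adjusted p under 0.05. These counts cover all rows, the 2 genes included. For the 2 genes a call would be no test, since these contrasts chose them. The 2 models were compared with the same 3 control mice, so their values are not independent.

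The levels are also given by the mice's alleles, name prefix, and Y-linked signal, as a description only. Among LacZ/fl mice *Uchl1* was at 5.88 and 6.02 in control, 8.00 in Δ1w, and 7.0 to 7.62 in Δ2w muscle, and among fl/fl mice at 5.49 in control and 7.48 and 7.60 in Δ1w muscle. *Kcnh2* was at 7.43 and 7.69, 8.98, and 8.73 to 9.23 in the LacZ/fl mice and at 7.17, 8.69, and 9.01 in the fl/fl mice, in the same order. There were 0 Δ2w mice among the fl/fl mice. Of the control mice, the single fl/fl mouse was the lowest for both genes. A prefix of the sample names, whose meaning the sources do not give, is shared by control replicates 1 and 6 and all Δ2w mice. The prefixes of the Δ1w mice were those of no control mouse, so prefix and Δ1w cannot be told apart. Within the shared prefix, Δ2w muscle was above control by 1.37 for *Uchl1* and 1.47 for *Kcnh2*. Among the 3 mice with low Y-linked signal, *Uchl1* was at 5.88 for control, 7.60 for Δ1w, and 7.62 for Δ2w muscle, and *Kcnh2* at 7.43, 9.01, and 8.73. With 1 array left out at a time, the Δ1w differences ran from 1.74 to 2.01 for *Uchl1* and from 1.33 to 1.59 for *Kcnh2*, and the Δ2w differences from 1.37 to 1.69 and from 1.47 to 1.75.

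The close relatives of *Uchl1* did not pass. The family of ubiquitin C-terminal hydrolases has 4 other members on the array. *Uchl3*, which also removes the related modifier Nedd8, was at 10.70 ± 0.05 (SD, n = 3, log2 signal) for control, 10.55 ± 0.30 for Δ1w, and 10.87 ± 0.14 for Δ2w muscle. *Uchl5*, which works at the proteasome, was at 10.91, 10.71, and 10.74, and *Bap1*, a nuclear enzyme that acts on histone H2A, at 9.56, 9.61, and 9.93. *Uchl4*, a mouse gene close in sequence to *Uchl3*, was at 6.13, 6.58, and 6.33, near background. Of these 4 genes, 0 were called by limma in Δ1w or Δ2w muscle, where 1.41% and 0.0450% of all rows were called. The called rows of Δ2w muscle were 0.0360% higher and 0.00901% lower, and those of Δ1w muscle 0.905% and 0.500%. At an unadjusted p under 0.05 the counts were 0 and 1 (14% and 7.47% of all rows), the latter *Bap1* in Δ2w muscle (log2 change 0.37, standard error 0.16). Their changes ran from −0.20 to 0.46 in Δ1w and from −0.16 to 0.37 in Δ2w muscle.

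*Kcnh2* lay above the negative control median on all 9 arrays, and its relatives mostly did not. Of the 7 other *Kcnh* genes, which encode EAG, ERG, and ELK type potassium channels, 6 were below the negative control median on all 9 arrays. The seventh was *Kcnh3*, at 6.16 in control replicate 1 and 5.11 to 5.68 in the other 8 mice. *Kcnh6* and *Kcnh7*, the other 2 ERG type channels, were at means of 4.19 and 5.39 for control, 4.03 and 5.29 for Δ1w, and 3.84 and 5.40 for Δ2w muscle. Of the 7, 0 were called by limma in either model (1.41% of all rows in Δ1w and 0.0450% in Δ2w muscle), and 0 had an unadjusted p under 0.05 (14% and 7.47%). Their log2 changes ran from −0.42 to 0.17 in Δ1w and from −0.36 to 0.08 in Δ2w muscle, but at this level a change could not be read.

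**Figure D2:**
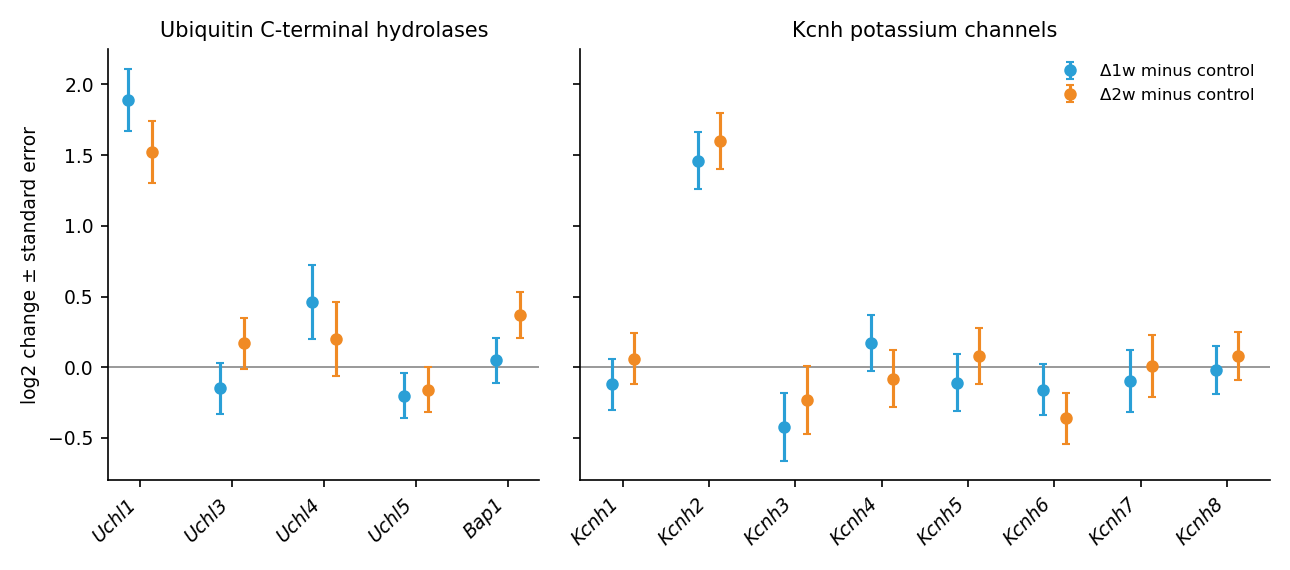
Log2 change from control (y axis) ± standard error from limma (3 mice per group) for the 5 ubiquitin C-terminal hydrolases and the 8 *Kcnh* channels, in Δ1w (blue) and Δ2w (orange) muscle. *Uchl1* (1.89 and 1.52) and *Kcnh2* (1.46 and 1.60), chosen for being raised in both models, stand above their relatives, whose changes ran from −0.42 to 0.46. Of the other *Kcnh* genes, 6 lay below the negative control median on all arrays.

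Among proteins that work with the ERG channel or pass it to the membrane, 11 of 17 listed symbols had a row, *Kcne1l* being another symbol of *Kcne5*. In Δ1w muscle 1 was called higher (0.905% of all rows), 0 lower (0.500%), and 10 did not pass, with a list median of −0.15 beside 0.00 for all rows. The gene was *Hsp90aa1*, a chaperone that many client proteins need for folding, at 11.38, 11.18, and 11.41 for control, 11.87, 12.71, and 12.43 for Δ1w, and at a mean of 11.91 ± 0.13 (SD, n = 3) for Δ2w muscle, with every mouse of both models above the control mice. It rose by 1.01 in Δ1w muscle (limma adjusted p = 0.0397, standard error 0.21). That call was lost in 8 of 9 fits that left out 1 mouse (adjusted p up to 0.138) and held without Δ1w replicate 1 (adjusted p = 0.0064). In Δ2w muscle 0 were called by limma (0.0450% of all rows), and *Hsp90aa1* (log2 change 0.59) was the 1 gene with an unadjusted p under 0.05 (7.47% of all rows). The accessory subunits *Kcne1*, *Kcne2*, *Kcne3*, and *Kcne4* had group means between 3.63 and 5.99, near or under background. *Kcne1l* was at a mean of 9.13 for control, 10.23 for Δ1w, and 9.14 for Δ2w muscle, with 1.10 in Δ1w muscle (limma adjusted p = 0.225, standard error 0.39) carried by replicates 5 (10.51) and 8 (10.82), and control replicate 6 was at 10.02.

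Other potassium channels of muscle gave no call. Of 18 genes with a row among 21 listed, 0 passed limma in Δ1w muscle (2 higher and 2 lower at an unadjusted p under 0.05, a threshold that 14% of all rows passed) and 0 in Δ2w muscle (1 higher, beside 7.47% of all rows). The shares of all rows called were 1.41% and 0.0450%. The smallest p in Δ1w muscle was that of *Kcnc1*, a fast voltage-gated channel, at 13.28 ± 0.12 (SD, n = 3) for control, 13.99 ± 0.13 for Δ1w, and 13.62 ± 0.14 for Δ2w muscle (log2 change 0.70, limma adjusted p = 0.0607). The list medians were −0.10 in Δ1w and 0.08 in Δ2w muscle, beside 0.00 for all rows in each.

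Of 25 other deubiquitinases, 1 was called higher in Δ1w muscle (0.905% of all rows) and 0 lower (0.500%), and 0 were called by limma in Δ2w muscle (0.0450%). With an unadjusted p under 0.05 there were 5 higher and 1 lower in Δ1w (14% of all rows passed) and 5 higher in Δ2w muscle (7.47%). The list medians were 0.08 and −0.02. The gene called was *Usp13*, a ubiquitin protease, at 13.60, 13.59, and 13.67 for control, 14.42, 14.36, and 14.26 for Δ1w, and 14.07, 14.03, and 14.13 for Δ2w muscle. Its 3 groups did not overlap. It rose by 0.72 in Δ1w muscle (limma adjusted p = 0.0351, standard error 0.15), but with any 1 of the 9 mice left out the adjusted p was 0.0546 to 0.109. In Δ2w muscle it was at 0.46 (limma adjusted p = 0.546).

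*Kcnh2* is known from studies of muscle wasting, and the genes of that process were listed beside it. Of 13 wasting genes with a row, 0 were called by limma in Δ1w muscle (1 higher and 4 lower at an unadjusted p under 0.05) and 0 in Δ2w muscle (0 at that unadjusted p too). Over all rows the called shares were 1.41% and 0.0450%, and 14% and 7.47% passed the unadjusted threshold. The list medians were −0.36 and −0.10. *Fbxo32* (the ligase atrogin-1) had the smallest p, at 10.42, 11.31, and 10.33 for control, 11.96, 12.63, and 11.18 for Δ1w, and 11.02, 11.29, and 11.05 for Δ2w muscle. Control replicate 2 lay above Δ1w replicate 8, so the groups overlapped (log2 change 1.24, limma adjusted p = 0.109, standard error 0.34). *Trim63* (the ligase MuRF1), which has been placed downstream of the ERG channel in mouse muscle, was at 13.57 ± 0.22 (SD, n = 3) for control, 12.84 ± 0.33 for Δ1w, and 13.29 ± 0.25 for Δ2w muscle. Its log2 changes were −0.74 (limma adjusted p = 0.125) and −0.29 (limma adjusted p = 0.802), beside 1.46 and 1.60 for *Kcnh2*.

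Of 14 genes that respond to denervation, 0 were called by limma in Δ1w muscle (3 higher and 2 lower at an unadjusted p under 0.05) and 0 in Δ2w muscle (1 higher and 2 lower). Of all rows, 1.41% and 0.0450% were called and 14% and 7.47% had such a p. The list, which was not split by the direction in which each gene responds, had medians of 0.05 and 0.00. *Ankrd1*, a stress-induced repeat protein of muscle, had the smallest p, with means of 9.88, 11.96, and 10.44 in control, Δ1w, and Δ2w muscle (log2 change 2.08 in Δ1w muscle, limma adjusted p = 0.0683, standard error 0.50). *Chrng*, the fetal acetylcholine receptor subunit that returns after denervation, was at means of 4.96, 4.58, and 4.86, under background in each group.

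Of 12 slow fiber genes, 6 were called higher in Δ1w muscle (0.905% of all rows) and 0 in Δ2w muscle (0.0360% of all rows) by limma. At an unadjusted p under 0.05 the counts were 11 higher in Δ1w and 2 higher and 1 lower in Δ2w muscle (14% and 7.47% of all rows), with medians of 1.39 and −0.09. *Sln* (sarcolipin, a regulator of the calcium pump) was at 8.45, 8.55, and 9.80 for control, 11.37, 13.47, and 13.08 for Δ1w, and 9.21, 9.48, and 9.14 for Δ2w muscle, and the Δ1w mice lay above all others. It rose by 3.70 in Δ1w muscle (limma adjusted p = 0.00367), beside 0.34 in Δ2w muscle. *Myl2* (a slow myosin light chain) rose by 2.48 and *Tnni1* (slow troponin I) by 2.68 in Δ1w muscle, beside 0.25 and −0.27 in Δ2w muscle. *Myoz2*, a Z-disc protein, rose by 1.29 in Δ1w muscle (limma adjusted p = 0.00515), beside 0.87 in Δ2w muscle (limma adjusted p = 0.166), with all mice of both models above the control mice, as for *Uchl1* and *Kcnh2*. The direct difference between the models was called by limma for 0 of the 12 (0.00450% of all rows). At an unadjusted p under 0.05, 10 were higher in Δ1w (8.29% of all rows passed in either direction). The list median of that difference was 1.78, beside 0.37 for *Uchl1* and −0.14 for *Kcnh2*, which were chosen for rising in both models. The slow fiber count in Δ1w muscle ranged from 0 to 9 over 19 alternatives, and was 0 with the clock gene index as a covariate, 3 without Δ1w replicate 5 or 8 or control replicate 1 or 6, and 9 without Δ1w replicate 1.

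**Figure D3:**
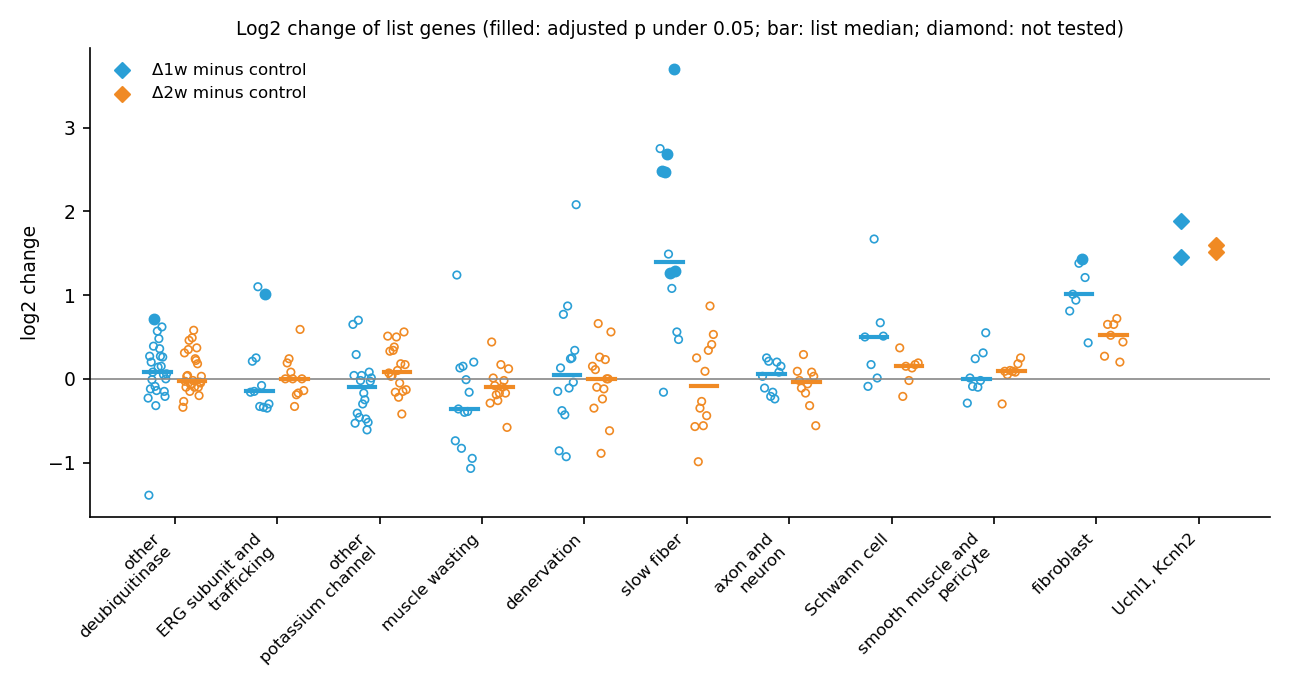
Log2 change from control (y axis) of each gene of 10 lists, as circles, in Δ1w (blue) and Δ2w (orange) muscle, filled where the adjusted p from limma was under 0.05, with a bar at each list's median and *Uchl1* and *Kcnh2* as diamonds. The slow fiber list has medians of 1.39 and −0.09, whereas *Uchl1* (1.89 and 1.52) and *Kcnh2* (1.46 and 1.60) were chosen for being high in both models.

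Because *Uchl1* marks nerve and *Kcnh2* is also made by smooth muscle, markers of other cells were read on the same arrays. Of 10 axon and neuron genes, 7 were below the negative control median on all 9 arrays, and *Nefl*, the light neurofilament subunit, was at means of 3.72, 3.74, and 3.81 in control, Δ1w, and Δ2w muscle. The mean of that list was 4.83 to 4.91 in control, 4.87 to 4.92 in Δ1w, and 4.72 to 4.84 in Δ2w mice. Of these 10 genes 0 were called by limma in either model, with 0 and 1 at an unadjusted p under 0.05, the latter *Elavl4* (an RNA-binding protein of neurons; −0.56 in Δ2w muscle). The cell bodies of these neurons lie outside the muscle. The 7 Schwann cell genes with a row had means of 7.0 to 7.38 in control, 7.50 to 7.92 in Δ1w, and 7.13 to 7.58 in Δ2w mice, with 0 called by limma in Δ1w (2 higher at an unadjusted p under 0.05) or Δ2w muscle (0). The 8 smooth muscle and pericyte genes had list means of 10.13 to 10.77, 10.27 to 10.77, and 10.31 to 10.55, with 0 called by limma and 0 at an unadjusted p under 0.05 in either model. Beside these lists, 1.41% of all rows were called in Δ1w and 0.0450% in Δ2w muscle, and 14% and 7.47% had an unadjusted p under 0.05.

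Of 7 fibroblast genes with a row, 1 was called higher in Δ1w muscle (0.905% of all rows), *Dpt* (dermatopontin, a matrix protein; log2 change 1.43, limma adjusted p = 0.027), a call lost in 4 of 9 fits without 1 mouse. For Δ2w, 0 were called by limma (0.0450% of all rows). At an unadjusted p under 0.05, 6 were higher in Δ1w and 2 in Δ2w muscle (14% and 7.47% of all rows), and the list medians were 1.01 and 0.52. The list mean was 13.47 to 14.11 in control, 14.28 to 15.28 in Δ1w, and 14.09 to 14.50 in Δ2w mice, so that Δ1w mice lay above control mice and the lowest Δ2w mouse reached their range. Its part in the values of *Uchl1* and *Kcnh2* was not tested. In the remaining lists 0 genes were called by limma in either model. At an unadjusted p under 0.05, which 14% of all rows passed in Δ1w and 7.47% in Δ2w muscle, 2 of 8 satellite cell genes were lower in Δ1w and 4 in Δ2w muscle, 2 and 1 of 7 macrophage genes were higher, 1 and 0 of 5 adipocyte genes were higher, 1 and 0 of 8 endothelial genes were lower, and 0 of 2 erythroid genes passed. Of the skeletal muscle genes, 1 and 0 of 12 were lower at that p, with 0 called.

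The genes whose pattern was most like each of the 2 were named by Pearson's correlation over the 9 log2 signals, among the 19504 other gene symbols. All 9 points belong to 3 groups, so a high value says mainly that a gene parts control from both models. For *Uchl1* they were *Abca8a* (a lipid transporter; r = 0.979), *Insyn1* (0.972), *Zfp770* (a zinc finger protein; 0.969), *Npr3* (a natriuretic peptide receptor; 0.968), and *Hivep1* (a zinc finger protein; 0.966). In each of these 5, as in *Uchl1*, the mean was higher in Δ1w than in Δ2w muscle. *Abca8a* was at 10.09 ± 0.09 (SD, n = 3) for control, 11.15 ± 0.10 for Δ1w, and 10.82 ± 0.07 for Δ2w muscle. *Npr3* spanned more, from 10.04 to 11.04 in control, 12.72 to 14.46 in Δ1w, and 13.12 to 13.54 in Δ2w mice.

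For *Kcnh2* the 5 genes were *Hspa1l* (a chaperone of the Hsp70 family; r = 0.972), *Polb* (a DNA repair polymerase; 0.967), *Itga4* (an integrin subunit; 0.958), *Dlk1* (an imprinted transmembrane protein; 0.954), and *Amot* (angiomotin; 0.949). *Hspa1l* was at 7.12 ± 0.19 (SD, n = 3) for control, 8.75 ± 0.17 for Δ1w, and 8.56 ± 0.14 for Δ2w muscle. *Itga4* was at 9.96 ± 0.09, 11.20 ± 0.12, and 11.62 ± 0.34, with the highest values in Δ2w replicates 2 (11.93) and 3 (11.67), which were also the highest 2 mice for *Kcnh2*. *Dlk1* was at 8.56 ± 0.35, 9.94 ± 0.42, and 9.97 ± 0.30.

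**Figure D4:**
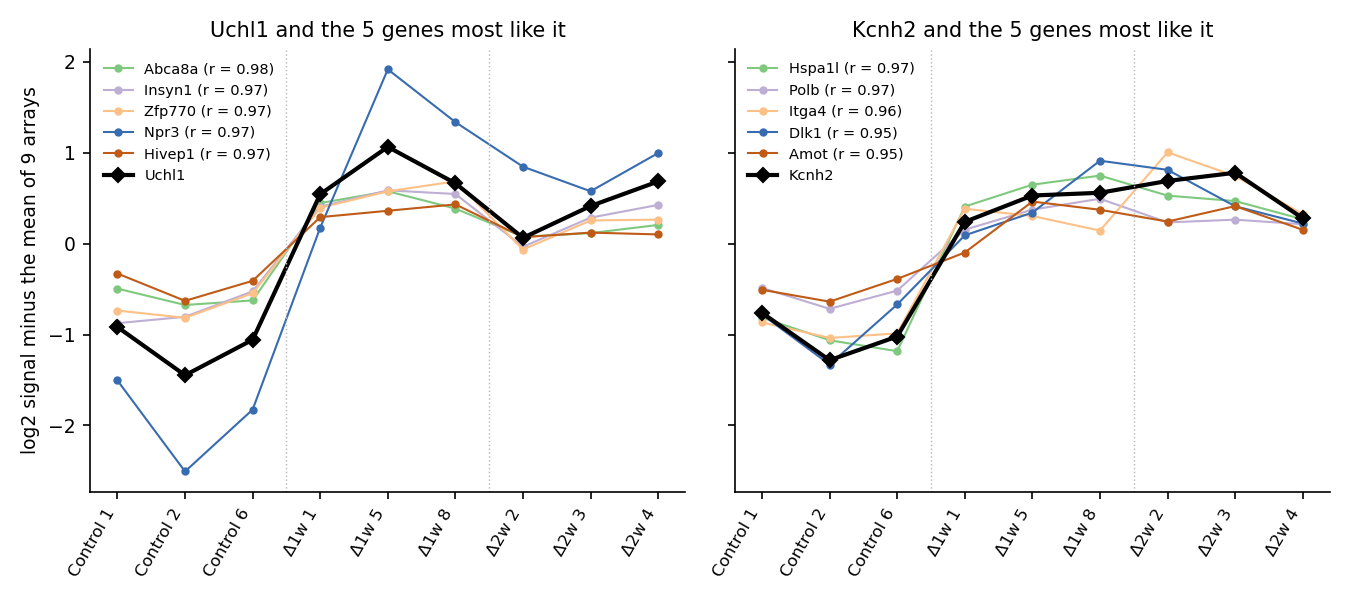
Log2 signal minus the mean of the 9 arrays (y axis) in each mouse for *Uchl1* (left) and *Kcnh2* (right), in black, and the 5 genes most like each over the 9 arrays. Lines only join the values of a gene, and each gene lies lower in the 3 control mice than in the 6 mice of both models.

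*Uchl1* and *Kcnh2* were not among each other's 5 most alike genes, but both were chosen for rising in both models, which favors a high correlation. Their correlation over the 9 arrays was 0.91, place 68 for *Uchl1* and place 35 for *Kcnh2* among 19504 genes. Over deviations from the 3 group means it was 0.19, and by rank over the 9 arrays 0.55. Control replicate 2 was the lowest mouse and control replicate 1 the highest control mouse for both genes, and Δ1w replicate 1 was the lowest Δ1w mouse for both. In Δ2w mice they parted, since replicate 4 was the highest for *Uchl1* and the lowest for *Kcnh2*. Over deviations from group means, the 5 genes most like *Uchl1* were *Olfr1475* (r = 0.990), *Tubgcp5* (0.978), *Far2* (0.977), *Smoc2* (0.977), and *Sfxn2* (0.968), and those most like *Kcnh2* were *Fam189b* (0.986), *Gm5084* (0.979), *Igsf23* (0.973), *Krr1* (0.973), and *Mdga1* (0.972). *Olfr1475*, *Far2*, *Sfxn2*, *Gm5084*, and *Igsf23* had group means of 3.41 to 5.64, under the negative control medians. The 5 highest of 19504 values over 9 arrays are also high by the way they were picked. The lists over deviations shared 0 genes with those over the plain signals. The 5 genes most like each by rank also shared 0 with those, and the 5 by linear signals shared 2 for each gene. *Smoc2*, which encodes a secreted matrix protein, was alone among these 10 in being higher in both models by over 0.5, at means of 8.76 for control, 9.96 for Δ1w, and 9.40 for Δ2w muscle.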

How the data were processed

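Total RNA of 9 TA muscles was measured on Clariom S Mouse arrays. The deposited values are log2 gene signals, which the authors computed with the sst-rma method (a signal space transformation followed by robust multi-array averaging), with background adjustment, normalization across arrays, and summary to 1 value per gene. Affymetrix Expression Console is the tool in the submitters' processing notes, and no genome build of the probes is given there. Of 28846 rows, 6640 control probes were left out, and 22206 gene rows were kept, 19572 with a symbol. From these, limma 3.58.1 in R 4.3.3 (lmFit and eBayes) fitted the 3 groups in 1 model with 6 residual degrees of freedom, with Benjamini-Hochberg adjustment over the 22206 rows and calls at an adjusted p under 0.05. The study used littermate controls, but the labels do not say which mice shared a litter, and p-values measure the spread between these mice. The number of arrays limits the precision. Signals were simulated for Δ1w against Δ2w, with 200 of 22206 rows changed and noise drawn independently for each row. The fit found 45.6% of log2 changes of 1 and 94.6% of changes of 2, with 6.9 false calls on average. With fewer changed rows the adjustment is stricter, so these shares need not hold for the real contrast. The 2 genes and all gene lists were chosen with earlier results of these data known, the lists from textbook knowledge. Genes named are the 2 members, their families, list genes that were called or had the smallest p, and the 5 most alike by Pearson's correlation over log2 signals and over deviations from group means, and other genes were named after their values were seen. Several symbols have more than 1 row, and the row with the highest mean was then used. Alternatives were leaving out each mouse, other normalizations, a minimum mean signal of 6, other variance models, array weights, the name prefix, *Mymk* alleles, Y-linked genes, and clock genes as terms, the 2 groups alone, and the unpaired t-test named in the methods. Protein sequences were not used here. Python 3.11.15 with matplotlib 3.10.9 served for tables and figures.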

Additional observations from a re-analysis of the deposited data

How the results depend on the processing

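The differences of *Uchl1* and *Kcnh2* from control, by which they were chosen, kept their sign and moved by less than the spread between mice. Over 19 alternatives for Δ1w they ran from 1.74 to 2.05 and from 1.33 to 1.59. Over 20 for Δ2w muscle they ran from 1.37 to 1.69 and from 1.47 to 1.75. Several alternatives could not move these differences and add no support. They were leaving out a mouse of the group not compared, the minimum signal, the trended variance, and the 2 groups alone. Without 1 mouse the Δ1w minus Δ2w difference was 0.21 to 0.52 for *Uchl1* and −0.29 to −0.04 for *Kcnh2*. Over all alternatives neither difference passed (limma adjusted p 0.387 to 0.934 and 0.836 to 0.989), nor did it by the methods' t-test. With *Mymk* alleles as a covariate the *Kcnh2* difference reversed to 0.03, and the cause was not tested. No paired analysis was possible because the labels do not say which mice shared a litter.

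The counts over all rows, which serve as background here, moved more. For Δ1w against control, 312 rows were called, and 544 with a minimum mean signal of 6 (fewer rows tested), 521 with a trended and robust variance, 131 with the 2 groups alone, 178 with a random block for the name prefix, 25 with the clock gene index, and 104 to 653 without 1 mouse. For Δ2w against control the 10 rows became 18 with arrays centred on their medians, 23 with the minimum signal, 40 with the trended variance, 32 with array weights, 21 with the 2 groups alone, 20 with the block, 1 within the shared prefix, 5 with the alleles, 21 with the clock index, 96 where a 2-fold change and an unadjusted p under 0.05 were asked for, and 0 to 21 without 1 mouse. For Δ1w against Δ2w the 1 row became 10 with the trended variance, 2 with Y-linked genes, and 0 to 58 without 1 mouse. The count was 143 where a 2-fold change and an unadjusted p under 0.05 were asked for. It was 0 by limma with the block, alleles, or clock index, where 1227, 2170, and 1532 rows had an unadjusted p under 0.05. Leaving out control replicate 2 gave 0 rows for Δ2w against control by limma (1486 with an unadjusted p under 0.05), as did leaving out control replicate 6 (1613) and Δ2w replicate 3 (1401). Slow fiber genes near 0 in Δ2w muscle changed sign without 1 mouse, *Tnni1* from −0.74 to 0.17 (0.10 within the shared prefix), *Myl2* from −0.08 to 0.70, *Tnnc1* from −0.99 to 0.07, and *Tpm3* from −0.07 to 0.18. Protein identity within the families was not run. The control level of *Uchl1* could not be read below the negative control median.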
